A study of Mus musculus with 3 samples.

Results

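The 10 genes described here, out of 27998 in the count tables, belong to fibroblast growth factor (FGF) signaling. They are the ligands Fgf7 and Fgf10, the receptors Fgfr1, Fgfr2 and Fgfr3, the intracellular inhibitors Spry1, Spry2 and Spry4, and the ETS-domain transcription factors Etv4 and Etv5. The genes were chosen by name. Their unique molecular identifiers (UMIs), each of which stands for 1 captured transcript, were summed over cells positive for Epcam, Pdgfra, Cdh5 or Ptprc in each of 3 single-cell libraries.

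The libraries were made from thymic lobes of C57BL/6 embryos at gestational day 13 to 13.5, dissociated with trypsin and counted from the 3′ ends of transcripts in droplets. The control was wild type. The library labelled Tbx1neo2/neo2 came from embryos homozygous for an allele with a neomycin cassette in an intron of Tbx1, a mouse model of the small thymus of 22q11.2 deletion syndrome, in which Tbx1 is one of the deleted genes. The library labelled Foxn11089/1089 came from hypoplastic lobes homozygous for a small deletion in Foxn1, the transcription factor that thymic epithelial cells need to develop. The number of embryos in each library is not given in the sources used here. With 1 library per genotype no test between genotypes was possible, so each difference is between libraries, and every interval covers counting error only. Values of the 3 libraries are given in the order control, Tbx1neo2/neo2, Foxn11089/1089 unless stated otherwise.

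FGF ligands made by mesenchyme act on receptor tyrosine kinases of neighboring epithelium, with heparan sulfate as a cofactor. Fgf7 and Fgf10 bind the epithelial splice form of Fgfr2, and mouse embryos without Fgf10 or without that splice form have a small thymus. Signaling through Ras and ERK raises Etv4, Etv5 and the Sprouty genes, and the Sprouty proteins dampen the same pathway. Counts from 3′ ends cannot separate the splice forms of a receptor.

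Of the 5932, 5516 and 11772 barcodes that had 200 genes or more and less than 20% of UMIs from mitochondrial genes, 3338, 2605 and 6877 fell in 1 of the 4 gates. A gate needed at least 2 UMIs of its gene and at least 75% of the cell's UMIs of the 4 gate genes. The Epcam gate held 1999, 815 and 4120 cells and the Pdgfra gate 680, 1366 and 2313. The Cdh5 gate was small, with 52, 94 and 109 cells, and the Ptprc gate had 607, 330 and 335. Each gate carried its own markers, all of which were detected in every library. The 9 epithelial markers summed to 5339.7, 5810.5 and 3160.03 counts per 1000000 UMIs (CPM) in the Epcam gate, and the 8 mesenchymal markers to 5896, 7434 and 6589 CPM in the Pdgfra gate. The 8 endothelial markers summed to 3339, 4813 and 3626 CPM in the Cdh5 gate, and the 8 hematopoietic markers to 3008, 2674 and 2792 CPM in the Ptprc gate. The libraries differed in depth. Median UMIs per cell were 16618, 46146 and 21057 in the Epcam gate and 9432.5, 25728.5 and 14517 in the Pdgfra gate. Between 17 and 28 barcodes were shared by any pair of libraries.

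The targeted genes were counted first. Tbx1 had 114, 656 and 1102 UMIs in all kept cells (1.39, 4.81 and 5.43 CPM), so it was not lower in the library labelled Tbx1neo2/neo2. By gate it was 0.876, 5.37 and 7.52 CPM in Epcam cells, 5.22, 5.48 and 3.47 in Pdgfra cells and 22.5, 24.4 and 22.3 in Cdh5 cells. The neo2 insertion is described as lowering the level of Tbx1, which these counts did not show. Intervals of the control and that library overlapped in Pdgfra cells (3.65 to 7.22 and 4.76 to 6.27) and Cdh5 cells (13.5 to 35.1 and 19.5 to 30.2). The paper states that the embryonic thymus does not express Tbx1. The counts thus neither bear out nor contradict the label, and each direction given for that library carries this limit. Foxn1 had 3144, 4726 and 15525 UMIs (38.4, 34.6 and 76.5 CPM). The Foxn1 allele is a small deletion, which a count of 3′ tags does not check.

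In all 3 libraries both ligands were highest in the mesenchyme and Fgfr2 was highest in the epithelium. Fgfr1 was highest in the Pdgfra gate, and the Sprouty and Etv genes were spread over epithelium, mesenchyme and endothelium. Only 7 of the 10 genes had at least 30 UMIs in every gate. Among those 7, only Spry2 differed from control by more than 2-fold in all 4 gates of both mutant libraries. Ratios were taken relative to the median gene of the gate. Spry2, an inhibitor of receptor tyrosine kinase signaling, was lower each time, with 480.5, 83.1 and 150.3 CPM in the Pdgfra gate. Of 9815 genes counted in all 4 gates, 3.08% and 1.91% were at least 2-fold lower in all 4 in the 2 mutant libraries. In CPM alone it fell short of 2-fold in the Epcam and Ptprc gates of the library labelled Foxn11089/1089.

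**Figure D1:**
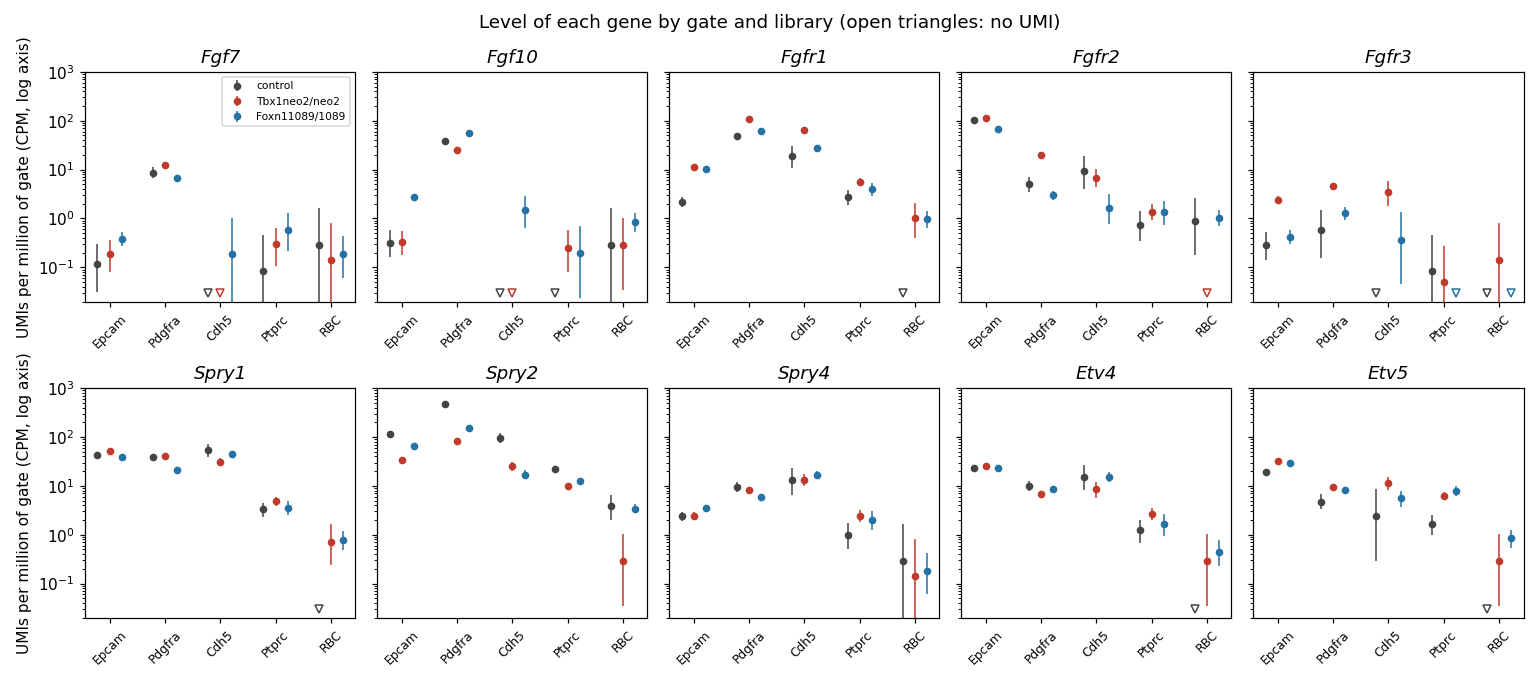
Level of each of the 10 genes (UMIs per 1000000 UMIs of the gate, log axis) in the 4 gates and in red blood cells (RBC), by library. Points are sums over the cells of 1 library and bars are exact 95% Poisson intervals, with open triangles where no UMI was counted. Fgf7 and Fgf10 stand highest in the Pdgfra gate, Fgfr2 in the Epcam gate, and control Spry2 lies above both mutant libraries in every gate.

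Fgf10, the mesenchymal ligand for the epithelial form of Fgfr2, was measured at 38.4 CPM (95% interval 33.9 to 43.3) in the Pdgfra gate of the control. It was 25.7 (24.2 to 27.4) in the library labelled Tbx1neo2/neo2 and 55.4 (53.0 to 57.8) in the library labelled Foxn11089/1089. Over the whole gate the mutant libraries thus lay on either side of the control, with no overlap of the counting intervals. Among mesenchymal cells with 10000 to 20000 UMIs the levels were 29.1, 26.4 and 62.7 CPM. The control and the library labelled Tbx1neo2/neo2 were closer to each other there, on 105 and 120 UMIs. That range lies above the control's median depth (9432.5 UMIs) and below that of the library labelled Tbx1neo2/neo2 (25728.5 UMIs). Within a library, Fgf10 was 120 times (65.7 to 242), 79.1 times (46.9 to 145) and 20.5 times (18.1 to 23.3) higher in the Pdgfra gate than in the Epcam gate. The library labelled Foxn11089/1089 had 275 Fgf10 UMIs in its epithelial cells, 2.70 CPM, against 11 control UMIs and 14 for the library labelled Tbx1neo2/neo2 (0.321 and 0.325 CPM). Red blood cells, which should not make Fgf10, had 0.293, 0.289 and 0.85 CPM. The epithelial levels of the control and the library labelled Tbx1neo2/neo2 were therefore at that background, so their ratios between gates are lower bounds, and the 2.70 CPM (2.39 to 3.04) was above it.

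The Fgf10 UMIs in epithelial cells of the library labelled Foxn11089/1089 were spread over the gate, at 2.81 CPM in Foxn1-positive cells, 2.78 in cells without Foxn1, thyroid or parathyroid genes and 2.08 in parathyroid-like cells. Mesenchymal transcripts were also higher in the Epcam gate of that library. All 8 mesenchymal markers were detected there in every library, and their sum was 79.1, 134 and 279.9 CPM. Col3a1 alone was 23.1, 41.8 and 87.3 CPM. Their part in the Fgf10 value was not tested.

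Fgf7, which binds the same receptor form, had 60, 470 and 249 UMIs in the Pdgfra gate. Its 3′ end overlaps Fam227b on the opposite strand, and whether counting used strand is not given in the sources used here. Its level was 8.69 CPM (6.63 to 11.2) for the control, 12.3 (11.2 to 13.5) for the library labelled Tbx1neo2/neo2 and 6.70 (5.90 to 7.59) in the library labelled Foxn11089/1089. The control lay between the 2 mutant libraries, whose intervals did not overlap each other. Among mesenchymal cells with 10000 to 20000 UMIs the control was instead the lowest, at 6.09, 20.3 and 8.09 CPM. In the Cdh5 and Ptprc gates no library had more than 6 UMIs of Fgf7, and none had more than 8 of Fgf10. Cells with a Fgf10 UMI carried more Fgf7 than mesenchymal cells without one, by 2.15-fold (1.25 to 3.69), 1.44-fold (1.19 to 1.73) and 1.72-fold (1.32 to 2.25). Mesenchymal cells in the cell cycle had lower levels of both ligands than the others in each library, with overlapping intervals for Fgf10 in the control. Fgf7 was 3.25 against 10.3, 5.61 against 14.3 and 4.79 against 7.58 CPM, and Fgf10 33.1 against 39.6, 19.6 against 27.5 and 46.7 against 59.4 CPM.

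To set libraries side by side, each log2 ratio to the control was centred on the median of all genes of the gate, since CPM of the median gene shifted by 0.16 to 0.46 on the log2 scale. A gene was called past 2-fold at a centred value of at least 1 or at most -1. On this scale Fgf10 in the Pdgfra gate was -0.94 (-1.14 to -0.74) in the library labelled Tbx1neo2/neo2 and 0.37 (0.19 to 0.56) in the library labelled Foxn11089/1089, both short of 2-fold. In the Epcam gate Fgf10 was at -0.37 (-1.62 to 0.91) and 2.78 (1.91 to 3.79). Fgf7 was at 0.14 (-0.25 to 0.55) and -0.53 (-0.94 to -0.10) in mesenchyme. In cells of 10000 to 20000 UMIs these became 1.34 (0.66 to 2.08), past 2-fold, and 0.20 (-0.45 to 0.91). In epithelium the Fgf7 ratio of the library labelled Foxn11089/1089 was 1.42, with an interval that reached 0 (-0.05 to 3.36), on 4 UMIs in the control and 39 in the mutant library.

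Fgfr2, the receptor that Fgf7 and Fgf10 bind on epithelium, was measured in the Epcam gate at 103.8 CPM (100.4 to 107), 114 (111 to 117) and 67.2 (65.6 to 68.8). Epithelial cells held 92.1%, 77.3% and 94.9% of all its UMIs in kept cells. The lowest epithelial level was thus in the library labelled Foxn11089/1089, at a centred log2 ratio of -0.92 (-0.98 to -0.87). The library labelled Tbx1neo2/neo2 was at -0.26 (-0.32 to -0.20) on the centred scale and at 0.13 without centring, so its direction turned with the scaling. After each cell was thinned to 2000 UMIs, 18.5% (16.8 to 20.2), 18.6% (15.96 to 21.4) and 13.1% (12.04 to 14.1) of epithelial cells had a Fgfr2 UMI, against 73.6%, 89.9% and 66.6% as deposited. Thinned red blood cells had it in at most 0.305%, at unthinned median depths of 8173.5, 18636.5 and 12486 UMIs.

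The lower Fgfr2 of the library labelled Foxn11089/1089 was found in Foxn1-positive and other epithelial cells, while the intervals overlapped in parathyroid-like cells. In Foxn1-positive cells it was 109.7, 126 and 75.6 CPM. In cells without Foxn1, thyroid or parathyroid genes it was 93.1, 109.8 and 52.4 CPM, and in parathyroid-like cells 57.0 for the control (25 cells) and 38.5 in the mutant library (371 cells), with intervals of 34.3 to 89.1 and 35.3 to 41.9. The library labelled Tbx1neo2/neo2 had no parathyroid-like cell but 109 thyroid-like cells, at 60.5 CPM.

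In mesenchyme the order was different. Fgfr2 was measured at 5.07 CPM (3.53 to 7.05) for the control, 19.7 (18.3 to 21.1) for the library labelled Tbx1neo2/neo2 and 2.96 (2.43 to 3.57) in the library labelled Foxn11089/1089. The centred ratios were 1.59 (1.10 to 2.13) and -0.93 (-1.49 to -0.34). The 9 epithelial markers summed to 41.2, 37.2 and 31.4 CPM in that gate. The part of epithelial transcripts in the Fgfr2 value was not tested. Endothelial Fgfr2 rested on 8, 24 and 9 UMIs (9.46, 6.82 and 1.66 CPM).

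**Figure D2:**
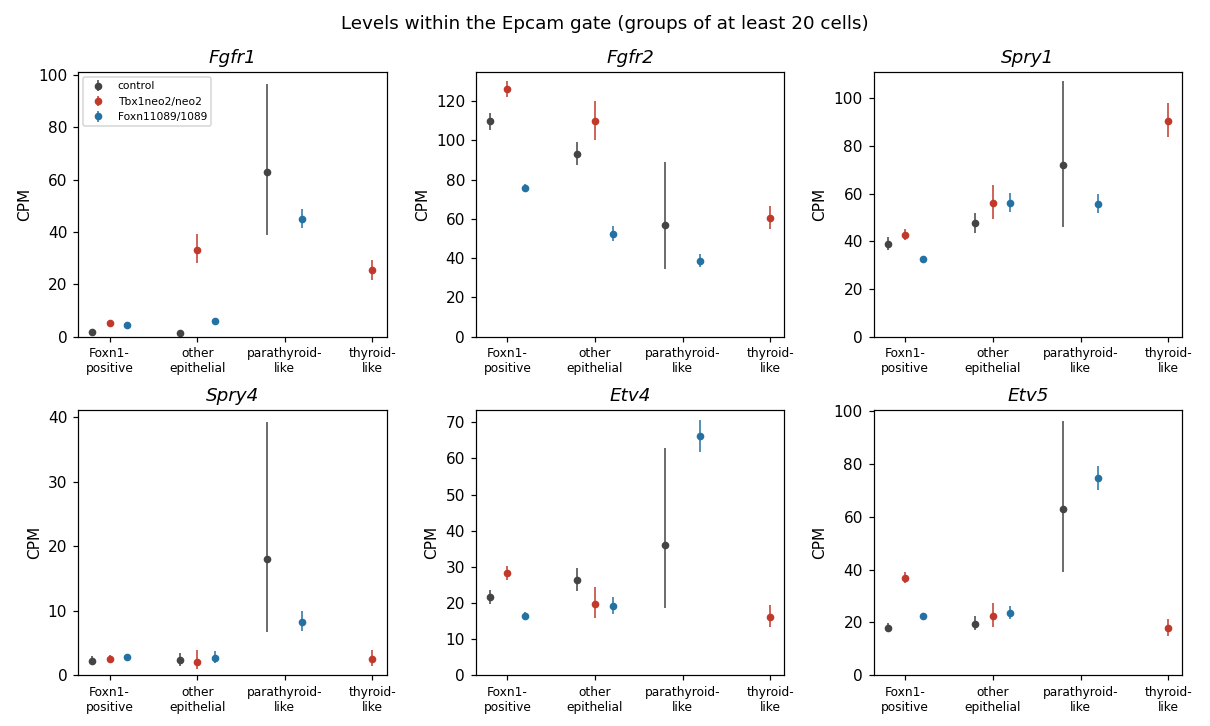
Levels of 6 genes (CPM) in subsets of Epcam-positive cells with at least 20 cells, by library, with exact 95% Poisson intervals. Other epithelial means cells with no UMI of Foxn1 and without the thyroid and parathyroid genes. Fgfr2 is lower in the library labelled Foxn11089/1089 in Foxn1-positive and other epithelial cells, while Etv4 and Etv5 are highest in parathyroid-like cells of that library.

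Fgfr1, the main FGF receptor of mesenchyme, was measured in the Pdgfra gate at 49.1 CPM (44.0 to 54.6), 109 (106 to 112) and 60.4 (57.9 to 63.0). The library labelled Tbx1neo2/neo2 stood above the others, at a centred ratio of 0.79 (0.63 to 0.95), and the library labelled Foxn11089/1089 was at 0.14 (-0.02 to 0.31). In the Cdh5 gate Fgfr1 was 18.9, 63.6 and 27.5 CPM, with centred ratios of 1.29 (0.56 to 2.12) and 0.24 (-0.51 to 1.08). In the Epcam gate it was 2.22, 11.3 and 10.2 CPM, and both mutant libraries were past 2-fold, at 1.95 (1.60 to 2.32) and 1.90 (1.56 to 2.26).

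The epithelial Fgfr1 was unevenly placed. In Foxn1-positive cells it was 1.66 CPM (1.17 to 2.28), 5.11 (4.36 to 5.97) and 4.38 (3.92 to 4.89). Parathyroid-like cells were far higher, at 63.1 CPM in control cells and 45.04 in the library labelled Foxn11089/1089, where they numbered 371 of 4120 epithelial cells against 25 of 1999. Thyroid-like cells of the library labelled Tbx1neo2/neo2 were at 25.4 CPM. The 122 cells of that library without Foxn1, thyroid or parathyroid genes were at 33.3 CPM (28.1 to 39.2), against 1.46 and 5.90 in the same subset of the other libraries. With only Foxn1-positive cells compared, the centred ratios were 1.25 and 1.18, lower than over the whole gate and still past 2-fold.

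Fgfr3 had 26, 489 and 112 UMIs in all kept cells. It was 0.292 CPM (0.14 to 0.537), 2.39 (1.95 to 2.90) and 0.422 (0.306 to 0.569) in the Epcam gate and 0.58 (0.158 to 1.48), 4.61 (3.96 to 5.35) and 1.27 (0.929 to 1.68) in the Pdgfra gate. The library labelled Tbx1neo2/neo2 was past 2-fold in both, at centred ratios of 2.64 (1.71 to 3.75) and 2.63 (1.25 to 4.52), on control counts of 10 and 4 UMIs. The epithelial ratio was 5.10 (2.49 to 10.46) in cells of 20000 to 40000 UMIs, on 1 control UMI, and 1.03 in Foxn1-positive cells. Its epithelial Fgfr3 lay mostly outside the Foxn1-positive cells, which had 0.695 CPM against 15.4 in cells without Foxn1, thyroid or parathyroid genes. In that gate the airway genes Sftpc and Nkx2-1 summed to 0.876, 87.3 and 0.727 CPM, and nearly all of the 87.3 was Nkx2-1, which thyroid cells also express. Their part in the Fgfr3 value was not tested.

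Spry2 was the Sprouty gene with the clearest difference. In the Pdgfra gate it was 480.5 CPM (464 to 497) for the control, 83.1 (80.2 to 86.0) for the library labelled Tbx1neo2/neo2 and 150.3 (146 to 154) in the library labelled Foxn11089/1089. In the Epcam gate it was 114 (110.2 to 117), 33.7 (32.0 to 35.5) and 64.1 (62.6 to 65.7). The control stood highest and the library labelled Tbx1neo2/neo2 lowest in both. In the Cdh5 gate Spry2 was 95.8 CPM (76.1 to 119), 25.6 (20.6 to 31.4) and 17.0 (13.7 to 20.8), and in the Ptprc gate 21.9 (19.3 to 24.7), 9.75 (8.44 to 11.2) and 12.3 (10.3 to 14.7). Red blood cells had 3.81, 0.289 and 3.44 CPM.

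The 8 centred log2 ratios of Spry2 were all past 2-fold lower. For the library labelled Tbx1neo2/neo2 they were -2.15 (-2.23 to -2.06) in the Epcam gate, -2.90 (-2.97 to -2.82) in the Pdgfra gate, -2.37 (-2.82 to -1.92) in the Cdh5 gate and -1.53 (-1.81 to -1.26) in the Ptprc gate. In the library labelled Foxn11089/1089 they were -1.12 (-1.18 to -1.07), -1.83 (-1.90 to -1.77), -2.80 (-3.24 to -2.35) and -1.06 (-1.38 to -0.75). In the Epcam gate of the latter the value fell short of 2-fold under 5 of the other ways of processing, the smallest being -0.83 without centring, and in the Ptprc gate it was -0.83 without centring. Both comparisons share the control library, so they are not independent of each other. Of 9815 genes counted in all 4 gates, 302 (3.08%) were at least 2-fold lower in all 4 in the library labelled Tbx1neo2/neo2 and 187 (1.91%) in the library labelled Foxn11089/1089, and Spry2 was among both. The share of genes lower in both libraries together was not counted. In the Pdgfra gate 77 of 14220 genes had a lower ratio than Spry2 in the library labelled Tbx1neo2/neo2, and 257 of 14208 in the library labelled Foxn11089/1089.

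**Figure D3:**
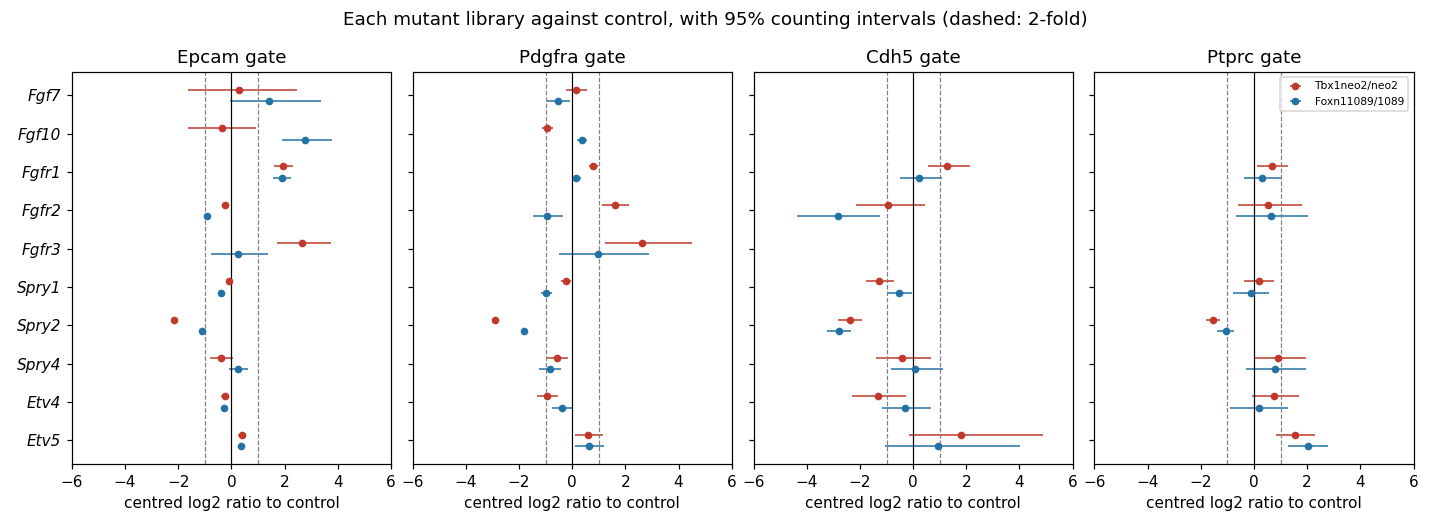
Centred log2 ratio of each gene to the control in the 4 gates, for the library labelled Tbx1neo2/neo2 (red) and the library labelled Foxn11089/1089 (blue), with exact 95% intervals for counting error. Dashed lines mark 2-fold, and genes under 30 UMIs in a gate are left out. Spry2 lies to the left of the lower line in every gate for both libraries.

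The difference in Spry2 was also present among cells of like depth. Mesenchymal cells with 10000 to 20000 UMIs had 573, 70.5 and 139.5 CPM (278, 261 and 1442 cells), and epithelial cells with 20000 to 40000 UMIs had 120.5, 37.4 and 66.0 CPM (599, 257 and 1779 cells). Both ranges lie above the control's median depth and below that of the library labelled Tbx1neo2/neo2. Whether such cells differ in other ways was not tested. Thinned to 2000 UMIs per cell, 43.5% (39.7 to 47.3), 12.4% (10.7 to 14.3) and 22.3% (20.6 to 24.0) of mesenchymal cells had a Spry2 UMI. Unthinned, at each library's own depth, the shares were 75.1%, 62.1% and 68.9%. In thinned red blood cells the shares were 0, 0.279% and 0.346%, where 0 of 328 cells allows a share of up to 1.12%. Cells with at least 2 Spry2 UMIs after thinning made up 22.7%, 2.05% and 5.28% of the mesenchyme.

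**Figure D4:**
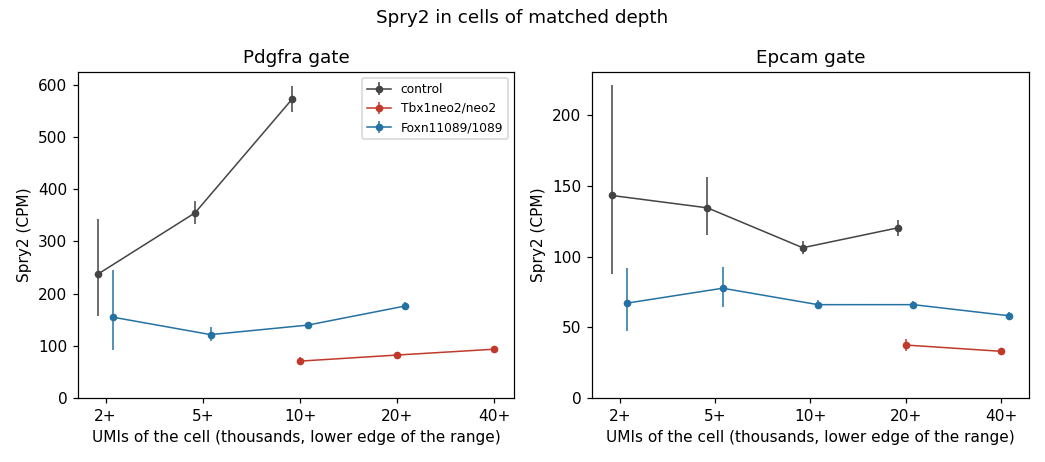
Spry2 (CPM, linear axis from 0) in cells grouped by their UMIs, for the Pdgfra and Epcam gates, by library, with exact 95% Poisson intervals. Each point is a range of depth that starts at the value on the axis and holds enough cells of that library. The control lies above the mutant libraries wherever the ranges overlap, though the intervals overlap from 2000 to 5000 UMIs, with 573 against 70.5 and 139.5 CPM in mesenchymal cells of 10000 to 20000 UMIs.

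Within the Pdgfra gate, Spry2 was higher in cycling cells than in the others in each library (626 against 439.7, 94.9 against 79.6 and 189.9 against 132 CPM), and the order of the libraries was the same in both. Pericyte-like cells gave 330.04, 50.5 and 116 CPM, on 24, 145 and 68 cells. Within the Epcam gate, Foxn1-positive cells gave 111, 35.4 and 65.7 CPM and parathyroid-like cells 159 for the control and 42.9 for the library labelled Foxn11089/1089. The control was thus the highest within each of these groups of cells. Genes induced by dissociation summed to 4113, 2821 and 3476 CPM in the Pdgfra gate, in the same order as Spry2, and to 3046, 2848 and 3361 CPM in the Epcam gate, in another order. Mitochondrial UMIs made up a median of 2.79%, 6.31% and 5.72% in the Pdgfra gate and 2.57%, 5.64% and 5.63% in the Epcam gate, lowest in the control. Their part in the Spry2 difference was not tested.

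Spry1, a related inhibitor, was past 2-fold lower in 1 gate of 1 mutant library when whole gates were compared. In the Epcam gate it was 42.1 CPM (40.0 to 44.3), 51.8 (49.7 to 54.0) and 39.3 (38.1 to 40.6), and in the Pdgfra gate 38.1 (33.6 to 43.0), 41.4 (39.4 to 43.5) and 21.6 (20.1 to 23.1). The centred ratios were -0.09 and -0.40 in epithelium and -0.24 and -0.98 in mesenchyme, so the library labelled Foxn11089/1089 was close to 2-fold lower in mesenchyme. For the library labelled Tbx1neo2/neo2 both turned positive without centring, at 0.30 and 0.12. At like depth the mesenchymal ratios were -0.06 (-0.34 to 0.23) and -1.50 (-1.76 to -1.23). After thinning to 2000 UMIs per cell they were -0.36 (-0.83 to 0.13) and -1.09 (-1.57 to -0.60). The library labelled Foxn11089/1089 was thus past 2-fold lower in mesenchyme under both. In the Cdh5 gate Spry1 was 53.2, 30.4 and 45.4 CPM, and the library labelled Tbx1neo2/neo2 was at -1.27 (-1.78 to -0.73). Thyroid-like cells of that library had 90.6 CPM of Spry1, against 42.7 in its Foxn1-positive cells. Mesenchymal cells with a Spry2 UMI carried more Spry1 than those without one, by 2.58-fold (1.68 to 4.14), 2.51-fold (2.20 to 2.88) and 2.07-fold (1.70 to 2.55). They were also deeper, with medians of 10003 against 8163, 27461 against 23889 and 15784 against 12588 UMIs.

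Spry4 was highest in endothelium, at 13.01 CPM (6.50 to 23.3), 13.4 (9.81 to 17.8) and 16.8 (13.5 to 20.6) in the Cdh5 gate. Epithelial Spry4 was 0.184, 0.181 and 0.209 times that level. Parathyroid-like cells had more of it than Foxn1-positive cells, 18.0 against 2.23 CPM for the control and 8.25 against 2.77 for the library labelled Foxn11089/1089. In the Pdgfra gate it was 9.56, 8.34 and 5.92 CPM, with centred ratios of -0.56 (-0.95 to -0.16) and -0.85 (-1.25 to -0.43). Over whole gates Spry4 was not past 2-fold. In cells of like depth it was, at -1.26 (-1.99 to -0.54) and -1.49 (-2.02 to -0.93) in the Pdgfra gate and at -1.09 (-2.05 to -0.22) in the Epcam gate of the library labelled Tbx1neo2/neo2. Without centring it was 1.29 and 1.04 in the Ptprc gate.

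The bases upstream of Spry1 and Spry2 are shown because the paralogs differed in pattern over whole gates. Each run is the 250 bases before the RefSeq start of transcription (GRCm38.p6), 5′ to 3′ on the strand of the gene, chr3:37639697-37639946 (plus strand) and chr14:105896820-105897069 (minus strand), with capitals at GGAA or its complement TTCC, the core bound by ETS-domain factors such as Etv4 and Etv5.
Spry1: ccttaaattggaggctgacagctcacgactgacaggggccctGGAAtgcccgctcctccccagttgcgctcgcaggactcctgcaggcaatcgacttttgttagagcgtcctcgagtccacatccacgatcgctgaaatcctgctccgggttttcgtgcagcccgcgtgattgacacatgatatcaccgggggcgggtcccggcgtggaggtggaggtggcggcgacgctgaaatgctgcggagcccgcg
Spry2: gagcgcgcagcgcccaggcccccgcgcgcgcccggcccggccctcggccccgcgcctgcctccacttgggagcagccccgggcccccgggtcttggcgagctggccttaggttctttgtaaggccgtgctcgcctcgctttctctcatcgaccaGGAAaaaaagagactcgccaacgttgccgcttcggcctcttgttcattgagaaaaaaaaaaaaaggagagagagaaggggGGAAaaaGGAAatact
Spry1 had 1 match and Spry2 had 3, both with 62.4% GC. The core is short and 93.45% of 32851 such windows in the genome held it on either strand, with a median of 3. The longer form CCGGAA was in 12.03% of windows and in none of the 9 windows of the 7 genes that RefSeq windows matched. The annotated genes lie at chr3:37639947-37644598 (Spry1) and chr14:105891947-105896819 (Spry2) in mm10. A match describes letters only.

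Etv4 and Etv5, transcription factors induced by FGF receptor signaling, were highest in epithelium. Etv4 was 23.2 CPM (21.6 to 24.8), 25.4 (24.0 to 27.0) and 23.6 (22.7 to 24.6) in the Epcam gate, with overlapping intervals, and its centred ratios of -0.25 and -0.27 became 0.14 and 0.03 without centring. Etv5 was 18.8 (17.4 to 20.3), 32.3 (30.7 to 34.1) and 29.7 (28.7 to 30.8), higher in both mutant libraries in CPM and at 0.39 (0.25 to 0.53) and 0.36 (0.24 to 0.49) on the centred scale. In mesenchyme the pair stood on opposite sides of 0. Etv4 was 9.998, 6.68 and 8.48 CPM, with -0.94 (-1.33 to -0.54) and -0.39 (-0.77 to 0.00), while Etv5 was 4.78, 9.38 and 8.21 CPM, with 0.61 (0.09 to 1.17) and 0.62 (0.10 to 1.19). Over whole gates none of these was past 2-fold, but they changed with the depth of the cells. In cells of like depth Etv4 was past 2-fold lower in mesenchyme, at -2.75 (-3.86 to -1.78) and -1.16 (-1.66 to -0.64), and in epithelium of the library labelled Tbx1neo2/neo2, at -1.74 (-2.07 to -1.42). Those ranges set deeper control cells beside shallower cells of that library. Mesenchymal Etv4 went from 6.12 CPM in control cells of 5000 to 10000 UMIs to 12.5 at 10000 to 20000. In the library labelled Tbx1neo2/neo2 it went from 2.42 CPM at 10000 to 20000 UMIs to 10.4 from 40000 UMIs. The part of depth was not tested. After thinning to 2000 UMIs per cell the mesenchymal Etv4 ratios were 0.04 (-1.29 to 1.54) and 0.06 (-1.17 to 1.496), on 7 control UMIs. The epithelial Etv5 ratios were -0.40 and -0.01 at like depth. Thinned mesenchymal Etv5 was at 3.14 (0.51 to 8.50) and 3.06 (0.47 to 8.40), on 1 control UMI.

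In hematopoietic cells, over the whole gate, Etv5 was past 2-fold higher in both mutant libraries. It was 1.65 CPM (1.01 to 2.55), 6.16 (5.12 to 7.33) and 7.86 (6.24 to 9.77). Its centred ratios were 1.53 (0.84 to 2.29) and 2.02 (1.30 to 2.80), on 20, 125 and 81 UMIs. Median UMIs per cell in the Ptprc gate were 20505, 61673.5 and 28977. After thinning to equal depth, 6 of 605, 2 of 330 and 5 of 334 cells had an Etv5 UMI. The intervals of these shares overlapped (0.36% to 2.15%, 0.07% to 2.17% and 0.49% to 3.46%). Such cells were too few to tell whether the difference held at equal depth. Red blood cells had 0, 0.289 and 0.85 CPM of Etv5. Endothelial Etv5 was 2.37, 11.4 and 5.53 CPM, with only 2 UMIs in the control and an interval from -0.14 to 4.90 in the library labelled Tbx1neo2/neo2. Etv4 was 15.4, 8.52 and 15.3 CPM there, at -1.31 (-2.29 to -0.25) in that library.

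Parathyroid-like cells had higher CPM of Etv4 and Etv5 than Foxn1-positive cells of the same library. The control had few parathyroid-like cells, and no intervals are given for these values. Etv5 was 63.1 against 18.0 CPM for the control and 74.6 against 22.4 for the library labelled Foxn11089/1089, and Etv4 was 36.0 against 21.5 and 66.1 against 16.5 CPM. Epithelial cells with an Etv4 UMI also held more Etv5 than cells without, by 1.82-fold (1.55 to 2.13), 2.84-fold (2.49 to 3.24) and 2.51-fold (2.33 to 2.71). They were also deeper, with medians of 20274 against 15285, 56953 against 37681.5 and 26483 against 19536 UMIs. Cells with a Fgfr2 UMI held more Etv5 by 1.57-fold (1.27 to 1.96), 3.04-fold (1.94 to 5.06) and 1.27-fold (1.16 to 1.39). Those cells were deeper as well, with medians of 17302 against 14737, 48614 against 22300 and 23107 against 17350 UMIs. The part of depth in these folds was not tested.

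Counted over the 10 genes, the Epcam gate of the library labelled Tbx1neo2/neo2 had 2 past 2-fold higher (Fgfr1 and Fgfr3), where 8.41% of 15686 genes were, and 1 lower (Spry2), where 11.6% were. The Epcam gate of the library labelled Foxn11089/1089 had 3 higher (Fgf7, Fgf10 and Fgfr1), where 12.9% of genes were, and 1 lower (Spry2), where 12% were. The Pdgfra gate had 2 higher (Fgfr2 and Fgfr3; background 10.3%) and 1 lower (Spry2; 9.86%) in the library labelled Tbx1neo2/neo2. It had none higher (5.56%) and 1 lower (Spry2; 7.76%) in the library labelled Foxn11089/1089. The medians of the 10 centred ratios were -0.17, 0.24, -0.05 and -0.46 in these 4 comparisons, where all genes have a median of 0.

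The smaller gates had 7 of the 10 genes above the minimum of 30 UMIs, without Fgf7, Fgf10 and Fgfr3. In the Cdh5 gate of the library labelled Tbx1neo2/neo2, 2 were higher (Fgfr1 and Etv5; background 16.5%) and 3 lower (Spry1, Spry2 and Etv4; 12.7%). In that of the library labelled Foxn11089/1089, none was higher (11.6%) and 2 were lower (Fgfr2 and Spry2; 9.36%). In the Ptprc gate 1 was higher (Etv5; 5.99% and 9.41%) and 1 lower (Spry2; 7.69% and 9.57%) in each mutant library. With so few genes these counts are read beside the background and not as a result about the group.

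Of 56 other genes of the pathway, the adaptors that couple receptors to Ras had 0 of 7 past 2-fold in the Epcam or Pdgfra gate of either mutant library. Grb2, with the most UMIs of them in epithelium, was 55.0, 66.4 and 66.2 CPM. Of all genes, 8.41% were higher and 11.6% lower in epithelium of the library labelled Tbx1neo2/neo2, and 10.3% and 9.86% in its mesenchyme. For the library labelled Foxn11089/1089 these shares were 12.9% and 12% in epithelium and 5.56% and 7.76% in mesenchyme. With so few genes, the counts are read beside these shares and not as results about the groups. Of 8 other inhibitors, 1 was lower in each gate of the library labelled Tbx1neo2/neo2. These were Dusp4 in epithelium (2.51 to 1.05 CPM) and Spred3 in mesenchyme (5.22 to 3.33 CPM, short of 2-fold without centring). In the library labelled Foxn11089/1089, 2 were higher in epithelium, Dusp5 (12.7 to 52.0 CPM) and Spred3 (1.29 to 4.15), and none in mesenchyme. Dusp6, an ERK phosphatase and the one with the most UMIs in epithelium, was 33.9, 33.9 and 64.8 CPM there and 22.9, 14.8 and 20.2 CPM in mesenchyme.

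The same all-gene shares apply to the other targets and the heparan sulfate enzymes. Of 4 other targets, 1 was past 2-fold higher in each gate of the library labelled Tbx1neo2/neo2, where 8.41% and 10.3% of all genes were. That target was Ccnd1, a G1 cyclin, at 17.2 to 61.7 CPM in epithelium and 25.2 to 148 CPM in mesenchyme. In the library labelled Foxn11089/1089, Etv1 was higher in epithelium (5.02 to 16.9 CPM) and none in mesenchyme. Egr1, the target with the most UMIs, was 251, 425 and 480.2 CPM in epithelium. Egr1 is also among the genes induced by dissociation that were summed above, and the part of dissociation in its level was not tested. Of the 8 heparan sulfate enzymes, Hs2st1 alone was past 2-fold in the Epcam and Pdgfra gates, from 42.1 to 119 CPM in epithelium of the library labelled Foxn11089/1089. Sulf1, with the most UMIs in mesenchyme, was 145, 187 and 171 CPM there.

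Of 15 other ligands with at least 30 UMIs in the Epcam gate, 4 were higher (Fgf5, Fgf9, Fgf11 and Fgf20) and 3 lower (Fgf3, Fgf14 and Fgf21) in the library labelled Foxn11089/1089, where 12.9% and 12% of all genes were. Fgf14, an intracellular FGF homolog, was 35.7 and 54.7 CPM for the control and the library labelled Tbx1neo2/neo2 and 0.0196 CPM, 2 UMIs, for the library labelled Foxn11089/1089 (centred -11.12, -14.17 to -9.27). Fgf21 was 5.90, 9.67 and 1.63 CPM. Among 7 cofactors, Flrt2 (8.65 to 124 CPM), Flrt3 (27.0 to 95.7 CPM) and Kl (1.02 to 13.8 CPM) were higher in that library and none was lower. Kl, the Fgf23 co-receptor, is expressed by parathyroid cells, which numbered 25, 0 and 371 by the rule used here.

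In epithelium of the library labelled Tbx1neo2/neo2, 3 ligands were higher (Fgf1, Fgf2 and Fgf11, the last from 2.63 to 11.4 CPM) and 3 lower (Fgf3, Fgf8 and Fgf20), where 8.41% and 11.6% of all genes were, and Kl and Fgfbp3 were lower among the cofactors. In mesenchyme 10 ligands passed that minimum, beside all-gene shares of 10.3% higher and 9.86% lower in the library labelled Tbx1neo2/neo2 and 5.56% and 7.76% in the other. Fgf3 was lower in both mutant libraries, at 8.55, 4.82 and 4.74 CPM, though short of 2-fold in both without centring. Fgf1 and Fgf5 were higher in the library labelled Tbx1neo2/neo2, on 2 and 5 UMIs in the control. Fgf9 had 0, 41 and 14 UMIs, so no fold is given. Flrt1 was the 1 of 5 cofactors past 2-fold, from 1.01 to 6.03 CPM in that library, and Flrt2, with the most UMIs, was 170.4, 239.7 and 338 CPM.

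Genes most like each of the 10 were sought by how much higher they were in cells with a UMI of the gene than in cells without, taking the lowest of the 3 libraries. For Spry2 in mesenchyme the first 5 of 5748 genes were Gm13889, Gas2l3, Dusp6, Ccl2 and Chst1. Dusp6 was 3.32, 3.20 and 2.43 times higher in Spry2-positive cells. For Etv4 in epithelium they were Ngfr, Cdh11, Etv5, Sema3a and Sncaip, of 7645, and for Etv5 Ngfr, Sncaip, Spata13, Etv4 and Cdh11, of 7270. Ngfr, a neurotrophin receptor, was 2.55, 5.62 and 5.29 times higher in Etv4-positive cells and 2.59, 8.19 and 4.69 times in Etv5-positive cells. Etv4 and Etv5 thus named each other and shared 3 more genes.

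For Fgfr2 in epithelium the genes most like it were Bnc1, Car14, Ppp1r16b, Ly75 and Ctnna2, of 9729. For Fgf7 in mesenchyme they were Akap12, Runx1t1, Basp1, Postn and Dcn. The Fgfr1 list held matrix genes (Mfap5, Ogn and Fbln2) beside the mitotic genes Cenpf and Anln. Spry1 and Spry4 were highest in the Cdh5 gate of the control, and their lists rest on 22 and 8 control cells with a UMI. That of Fgfr3 rests on 4. Over the 12 sums of 4 gates in 3 libraries, log2(CPM + 1) of Fgf10 went most closely with Barx1, Dpp10 and Wt1 (Pearson r = 0.997, 0.997 and 0.996) and that of Fgfr2 with Cdh3, Nptx2 and Nxn (0.989, 0.973 and 0.961). These points share libraries and gates, and the correlations are descriptions.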

How the data were processed

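The measurements were droplet 3′ UMI counts of dissociated thymic lobes, 1 library per genotype. Per the labels, the authors aligned and counted reads with Cell Ranger 3.0.0 on mm10, and the deposited matrices hold raw UMI counts of 27998 genes for 6410, 5759 and 12447 barcodes, with 82936619, 137498422 and 204655055 UMIs. The authors clustered the cells in Seurat, and their cluster labels were not used here. Cells were gated on 1 gene each instead, after barcodes with under 200 genes or at least 20% mitochondrial UMIs were left out. Red blood cells had at least 30% of UMIs on hemoglobin genes and lay in no gate.

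Counts were summed per gate and library and given as CPM with exact Poisson intervals. Ratios had exact conditional binomial intervals and shares of cells Clopper-Pearson intervals, all at 95%. Intervals and the floor of 3 counts cover counting error only. Log2 ratios were centred on the median of genes with at least 30 UMIs in a gate over the 3 libraries. Thyroid-like cells had at least 2 of Nkx2-1, Foxe1, Pax8 and Tg, parathyroid-like cells at least 2 of Gcm2, Casr and Chga, pericyte-like cells at least 3 of 6 pericyte and smooth muscle genes (Rgs5, Acta2, Tagln, Actg2, Myl9 and Tpm2), and cycling cells at least 2 of Mki67, Top2a, Birc5 and Cenpf, the last 2 groups after thinning to 2000 UMIs. No doublet caller was run. The gate rule left out cells with mixed gate genes, 124, 187 and 386 cells had at least 2 UMIs of more than 1 gate gene, and an alternative left out the 5% deepest cells.

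The members and lists were chosen with earlier results of these data known. Genes were named by list and by a fixed rule of likeness (at least 100 UMIs in the positive cells of every library). The genes most like Fgf10 by cells are not reported here. Alternatives covered the gate, the filters, the scaling, the weight of a cell, thinning and the subtraction of the red blood cell level. Functions were tested on simulated counts. Promoter windows are those of RefSeq for GRCm38.p6, found for 7 of the 10 genes, and coordinates are from the mm10 annotation in which all 10 gene identifiers matched. Python 3.11.15, numpy 2.4.6, scipy 1.17.1, pandas 2.3.3 and matplotlib 3.10.9 were used.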

Additional observations from a re-analysis of the deposited data

Results flagged for a closer look

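Fgfr2 in the library labelled Tbx1neo2/neo2 stood on opposite sides of the control in the 2 stromal gates, at a centred log2 ratio of -0.26 (-0.32 to -0.20) in the Epcam gate and 1.59 (1.10 to 2.13) in the Pdgfra gate. The difference between the gates was not tested, since each genotype had 1 library. The mesenchymal value was positive under every alternative tried, from 1.40 to 2.75, while the epithelial value became 0.13 without centring.

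Cells that fell in no gate, 2246 of the control and 2547 of the library labelled Tbx1neo2/neo2, were not part of the comparisons. In these cells Fgfr1 was 11.6 and 49.1 CPM (centred log2 ratio 1.64, 1.46 to 1.84 with counting error) and Fgfr3 0.452 and 7.97 CPM, on 11 and 196 UMIs (3.70, 2.83 to 4.73). Spry2 was 175 and 35.1 CPM there. The cells differed in depth between the libraries, with a median of 9914.5 UMIs for the control and 1310 for the library labelled Tbx1neo2/neo2, and in makeup, with Krt18 at 409 and 120 CPM. The part of depth and makeup was not tested.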

How the results depend on the processing

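No paired analysis was possible because each genotype had 1 library. Each value past 2-fold kept its direction under every alternative that gave one. The comparisons of cells of like depth, of Foxn1-positive cells and without cycling cells were chosen after seeing the data. Cells of like depth lay above the control's median depth and below that of the library labelled Tbx1neo2/neo2. Depth limits Fgf7, Fgf10 and Fgfr3 most, since they had under 30 UMIs in the Cdh5 and Ptprc gates, and with 1 library per genotype the spread between embryos is unknown. Ratios left the counting interval under an alternative in 73 cases in the Epcam gate, 43 in the Pdgfra gate, 6 in the Cdh5 gate and 5 in the Ptprc gate, against 271, 295, 196 and 199 that did not. Those of Spry2 and Fgfr2 in epithelium and of Spry2, Fgf10 and Fgfr1 in mesenchyme are given below, as centred log2 ratios to the control except without centring. Among the others, Fgf10 in the Epcam gate of the library labelled Foxn11089/1089 (2.78) was 5.76 with the red blood cell level subtracted.

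For Spry2 in the Pdgfra gate of the library labelled Tbx1neo2/neo2 (-2.90), the value was -2.53 without centring, -3.42 at like depth, -2.79 with cells weighted equally, -3.01 and -2.80 with gates of 1 and 3 UMIs, -3.17 with marker panels as gates and -2.81 thinned. In the library labelled Foxn11089/1089 (-1.83) it was -1.68 without centring, -2.25 at like depth, -1.74 with equal weights, -1.96 with panels, -1.70 thinned and -1.90 without cycling cells. In the Epcam gate of the library labelled Tbx1neo2/neo2 (-2.15) it was -1.76 without centring, -2.03 in Foxn1-positive cells, -2.00 without cycling cells, -2.04 without the 5% deepest cells and -2.01 without thyroid-like, parathyroid-like and pericyte-like cells. In that of the library labelled Foxn11089/1089 (-1.12) Spry2 was -0.83 without centring, -0.98 with equal weights, -1.05 in cells with no UMI of another gate gene, -0.98 in Foxn1-positive cells, -1.06 thinned, -0.99 without the deepest cells and -0.96 without those 3 groups.

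Fgfr2 in the Epcam gate of the library labelled Foxn11089/1089 (-0.92) was -0.63 without centring, -0.70 at like depth, -0.83 with equal weights, -0.81 with no UMI of another gate gene, -0.76 in Foxn1-positive cells, -0.76 thinned, -0.86 without cycling cells, -0.82 without the deepest cells and -0.75 without the 3 groups. In the library labelled Tbx1neo2/neo2 (-0.26) Fgfr2 was 0.13 without centring, -0.037 at like depth, -0.34 with panels, -0.18 in Foxn1-positive cells, -0.38 thinned, -0.20 without cycling cells and -0.14 without the 3 groups. Fgf10 in the Pdgfra gate was -0.58 without centring and -0.53 at like depth in the library labelled Tbx1neo2/neo2 (-0.94), and 0.90 at like depth and 0.16 thinned in the library labelled Foxn11089/1089 (0.37). Fgfr1 in the Pdgfra gate of the library labelled Tbx1neo2/neo2 (0.79) was 1.15 without centring and 1.32 at like depth, past 2-fold in both.

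The number of the 10 genes past 2-fold moved as follows. At like depth, the Pdgfra gate of the library labelled Tbx1neo2/neo2 had 4 higher (from 2) and 3 lower (from 1), that of the library labelled Foxn11089/1089 had 1 higher (from 0) and 4 lower (from 1), and the Epcam gate of the former had 3 lower (from 1). The all-gene shares there were 13.8% higher and 14.1% lower, then 6.81% and 7.46%, and 13.4% lower in that Epcam gate. In Foxn1-positive cells the library labelled Foxn11089/1089 had 0 lower in the Epcam gate (from 1), where 11.2% of all genes were lower. Without centring, the number higher went from 0 to 1 in the Cdh5 and Pdgfra gates of the library labelled Foxn11089/1089, from 1 to 2 in its Ptprc gate and from 1 to 4 in the Ptprc gate of the library labelled Tbx1neo2/neo2, and the number lower went from 1 to 0 in the Epcam and Ptprc gates of the former and from 3 to 1 in the Cdh5 gate of the latter. The all-gene shares higher in these gates were, in turn, 17.8%, 7.71%, 12.9% and 14.2%. Those lower were 8.02%, 6.41% and 4.81%. After thinning, the number higher was 1 in the Cdh5 and Epcam gates (from 2) and 0 in the Ptprc gate (from 1) of the library labelled Tbx1neo2/neo2, and 1 in the Epcam gate (from 3), 1 in the Pdgfra gate (from 0) and 0 in the Ptprc gate (from 1) of the library labelled Foxn11089/1089. The number lower after thinning was 0 in the Cdh5 gate of both (from 3 and 2) and 2 in the Pdgfra gate of both (from 1). Thinned all-gene shares higher were 18.4% (Cdh5), 6.74% (Epcam) and 7.41% (Ptprc) in the library labelled Tbx1neo2/neo2. In the library labelled Foxn11089/1089 they were 8.78% (Epcam), 6.08% (Pdgfra) and 8.97% (Ptprc). Thinned shares lower were 15.4% and 10.2% in the Cdh5 gates and 8.01% and 5.62% in the Pdgfra gates. Under the other gates, minimum counts, weights, subtraction of the red blood cell level and left-out cells, the Ptprc counts of higher genes were 2 or 3 in place of 1, the lower genes in the Pdgfra gate 2 or 3 in place of 1, the higher genes in the Cdh5 gate 1 in place of 2 and of 0, the higher genes in the Pdgfra gate of the library labelled Foxn11089/1089 1 in place of 0 with a gate of 3 UMIs, the lower genes in the Cdh5 gate of the library labelled Foxn11089/1089 1 in place of 2, and the lower genes in its Epcam gate 0 in place of 1. Under these, 4.18% to 8.45% (Tbx1neo2/neo2) and 6.90% to 11.9% (Foxn11089/1089) of all genes were higher in the Ptprc gates. Shares lower in the Pdgfra gates were 8.01% to 11.9% and 5.45% to 10.2%. Shares higher in the Cdh5 gates were 13.3% to 20.4% and 7.71% to 14.8%. In the library labelled Foxn11089/1089, 6.59% were higher in the Pdgfra gate of 3 UMIs. All these counts rest on 7 or 10 genes, so 1 gene crossing the threshold moves them. They are not read as results about the group.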

Other observations

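Other genes of the pathway were also counted in the smaller gates. In the Cdh5 gate the heparan sulfate enzymes had 4 of 8 genes past 2-fold higher in the library labelled Tbx1neo2/neo2 (Ndst1, Hs6st2, Sulf1 and Sulf2), where 16.5% of all genes were, and 1 in the library labelled Foxn11089/1089 (Hs6st2), where 11.6% were, and none lower. In the Ptprc gate Sulf2 was higher and Hs6st2 lower in both, and Sulf1 was higher in the library labelled Tbx1neo2/neo2. The inhibitors Il17rd and Dusp4 and the receptor-related genes Fgfrl1 and Flrt2 were past 2-fold higher in the Cdh5 gate of both mutant libraries. In the Ptprc gate Etv1, a relative of Etv4 and Etv5, was past 2-fold higher in both mutant libraries on 6, 38 and 17 UMIs, joined by Egr1 and Ccnd1 in the library labelled Foxn11089/1089, where 3 of the 4 other targets and 9.41% of all genes were higher (5.99% in the library labelled Tbx1neo2/neo2). Of these targets, Egr1 is also among the genes induced by dissociation. These gates held 52 to 109 and 330 to 607 cells per library, and 1 library per genotype gives no replicate check.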
